A study of Mus musculus with 9 samples.

Results

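The cytosolic ribosomal protein genes, which encode the proteins of the large (60S) and small (40S) subunits of the ribosome outside the mitochondria, were followed in mouse spermatogonial stem cells (SSC), in induced pluripotent stem cells made from SSC (SSCiPSC) and in induced pluripotent stem cells made from fetal fibroblasts (fiPSC). They were chosen by symbol as the protein-coding genes named Rpl or Rps with a number, together with Rpsa, Rplp0, Rplp1 and Rplp2, and without the Rps6k kinases and the pseudogenes. The GENCODE M21 annotation of GRCm38 holds 85 of them, 52 of the 60S and 33 of the 40S subunit, and the deposited table holds 54913 loci with values. Each gene was looked up by position, and 49 of the 85 genes (33 of the 60S and 16 of the 40S subunit) had a locus of their own. The results below rest on these 49 genes unless another set is named. A further 14 genes lay in a longer interval on their strand, 12 were covered by a locus inside the gene, 7 (Rpl18, Rpl23a, Rpl4, Rpl41, Rpl7a, Rpl8 and Rps18) shared a locus with a second gene and 3 (Rpl15, Rps27rt and Rps6) had no locus.

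The study asked how the transcriptome changes when SSC are reprogrammed, with fiPSC as the reference of somatic origin. There were 3 libraries in each of the 3 groups, and all 9 came from one mouse strain with 2 alleles. The first, Gt(ROSA)26Sortm1(rtTA*M2)Jae, places the doxycycline-dependent activator rtTA at the ROSA26 locus, and the second, Col1a1tm3(tetO-Pou5f1,-Sox2,-Klf4,-Myc)Jae, places a cassette of these 4 reprogramming factors behind a tetO promoter at Col1a1, so that the SSC carried both too. SSC were primary cells at passage 0, sorted from the testis of young pups with magnetic beads for the surface receptor Gfra1. SSCiPSC and fiPSC were clonal lines at passage 10 to 11 per the labels and were grown with LIF. The study's methods describe a stepwise withdrawal of doxycycline after reprogramming and a sort for SSEA1 to reduce feeder cells, at a later passage than the labels give, whereas the labels' growth protocol names doxycycline in the medium, and which holds for these libraries is not settled here. The study calls the libraries biological samples, but neither the labels nor its methods say that the 3 of a group came from separate animals or lines, so the p-values below measure the spread between these libraries, which may be technical. Values are FPKM, fragments per kilobase of transcript and per 1000000 mapped fragments, and the smallest steps between low values gave a depth of 1.75, 4.58 and 1.37 × 1000000 fragments for SSC replicates 1, 2 and 3, of 15.7, 13.7 and 15.1 × 1000000 for SSCiPSC and of 13.2, 17.5 and 15.2 × 1000000 for fiPSC. In all values below, the 3 numbers of a group follow the replicate numbers 1, 2 and 3. The SSC libraries were therefore the shallowest, and 1 fragment on a transcript of 1 kb was worth between 0.218 and 0.730 FPKM in them against at most 0.0759 FPKM in the iPSC libraries.

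A library of SSCiPSC stood apart on the Y chromosome. Over the 4 loci with a strand on this chromosome and a mean of at least 10 FPKM, SSCiPSC replicate 2 had a summed level of 0.395 FPKM, whereas the other 8 libraries had between 85.9 and 129.9 FPKM. The counts of ribosomal protein genes are therefore also given without this library.

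The ribosome translates mRNA into protein: the 40S subunit reads the codons and the 60S subunit joins the amino acids. Its proteins are made in balanced amounts and assembled on rRNA in the nucleolus, and their mRNAs are among the most abundant of a growing cell. In vertebrates these mRNAs as a rule begin with a C and a run of pyrimidines, the 5′ terminal oligopyrimidine (TOP) motif, through which mTOR and LARP1 set their translation. A few of the proteins have a paralogue, and Rpl39l, the paralogue of Rpl39, is known for its use in the testis.

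The sequences around the annotated starts are shown first, since the run of pyrimidines is the feature for which these genes are known. Of the 85 genes, 65 were in the RefSeq table of promoters (GRCm38.p6). For a gene with several annotated starts, the start with the longest run was taken, in all sets of genes alike. In the window of 15 bases before to 15 bases from the annotated start, read on the gene's strand only, 27 of these 65 genes (41.5%) held a run of at least 8 pyrimidines (C or T in any order). The share was 13.9% among all 27025 genes of that table and 13.0% (9 of 69) among genes of mitochondrial ribosomal proteins. The following lines print this window for 4 genes with a long run and for 3 genes with a short one that the results turn on, with the longest run in capitals.
Rpl27a (chr7:109519180-109519209, + strand): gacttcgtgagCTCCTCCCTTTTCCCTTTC
Rpl13a (chr7:45128731-45128760, - strand): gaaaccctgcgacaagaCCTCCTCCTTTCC
Rpl28 (chr7:4792950-4792979, + strand): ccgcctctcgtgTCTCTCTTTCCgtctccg
Rps9 (chr7:3704026-3704055, + strand): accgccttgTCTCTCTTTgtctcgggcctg
Rps4x (chrX:102189377-102189406, - strand): ctgaggctgggcggagcaacccaggCTCCa
Rpl6 (chr5:121204486-121204515, + strand): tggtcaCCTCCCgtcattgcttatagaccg
Rpl39l (chr16:10170213-10170242, + strand): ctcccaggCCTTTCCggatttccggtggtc
In Rpl27a, Rpl28 and Rps9 the run crosses the annotated start, in Rpl13a it follows the start, and in Rps4x, Rpl6 and Rpl39l no run of 8 lies in the window. A match of letters is not a mapped start, and a window without the run says only that these letters are not in it.

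All 49 genes were expressed above 0 in all 9 libraries, and all 49 passed the filter on low values (1 FPKM or more in 3 or more of the 6 libraries of a comparison). The median gene stood at 25.5, 36.9 and 41.6 FPKM in the SSC libraries, at 116, 141 and 117 FPKM in SSCiPSC and at 117, 116 and 105 FPKM in fiPSC. The medians of the iPSC libraries were thus above those of all 3 SSC libraries, and SSCiPSC and fiPSC overlapped. Summed over the 49 genes, the level was 3875, 4637 and 4383 FPKM in SSC, 13654, 12933 and 12383 FPKM in SSCiPSC and 12797, 12028 and 12932 FPKM in fiPSC. As a share of the summed FPKM of all loci with a strand, the 49 genes took 1.30, 1.45 and 1.42% in SSC, 2.88, 2.56 and 2.62% in SSCiPSC and 2.80, 2.73 and 2.78% in fiPSC. In these bulk libraries, a smaller number of cells of a kind and less RNA per cell cannot be told apart.

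**Figure D1:**
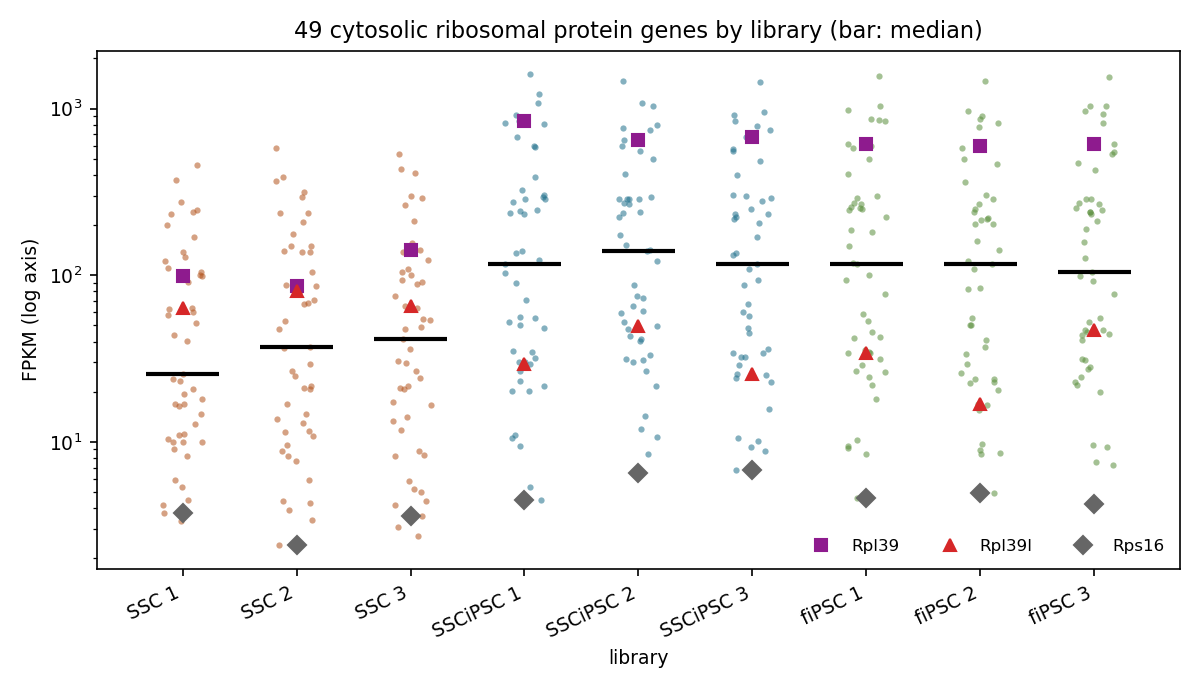
FPKM (log axis) of the 49 cytosolic ribosomal protein genes with a locus of their own in each of the 9 libraries, 1 point a gene, with a bar at the median and 3 genes drawn as larger symbols. The SSC medians lie between 25.5 and 41.6 FPKM and the iPSC medians between 105 and 141 FPKM, Rps16 is the lowest gene in every iPSC library, and Rpl39l lies lower in the iPSC libraries than in SSC while Rpl39 lies higher.

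The levels of the genes spanned a wide range, and their order was alike between groups. By mean FPKM, Rps3, Rpl26, Rps9, Rps19 and Rplp1 were among the 6 highest genes. Rps3, a 40S protein at the mRNA entry channel, was measured at 245, 318 and 299 FPKM in the SSC libraries, 1217, 1034 and 954 in SSCiPSC and 1029.8, 965 and 1043 in fiPSC. Rps16, a 40S protein near the decoding site, was measured at 3.76, 2.40 and 3.61 FPKM in the SSC libraries, 4.45, 6.49 and 6.78 in SSCiPSC and 4.63, 4.90 and 4.24 in fiPSC. Rps16 was the lowest of the 49 genes in each of the 6 iPSC libraries but not in every SSC library. Across the 49 genes, which share their libraries and their normalization, the Spearman rho of the mean level was 0.96 between SSC and SSCiPSC and 0.99 between fiPSC and SSCiPSC.

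The level of a ribosomal protein gene in this table went with the share of its coding sequence that also occurs in transcripts of other genes. The coding sequence of each gene was divided into all its words of 50 bases, and the words were looked up in the annotated transcripts of other genes. Fewer than 50% of the words had a copy in 9 genes (Rpl39l, Rps3, Rpl7l1, Rpl22, Rpl32, Rps15 and Rps9 among them), 50 to under 100% in 26 genes and all words in 14 genes. In SSCiPSC replicate 1, the median level of these classes was 596, 235 and 49.4 FPKM, and in SSC replicate 2 it was 235, 67.3 and 14.3 FPKM. Across the 49 genes, the Spearman rho of the mean level with the share of copied words was -0.50 in SSCiPSC and -0.56 in SSC. The difference between groups did not go with it: rho was -0.08 for the log2 fold change of SSCiPSC against SSC, and the median log2 fold change was 1.54, 1.57 and 1.44 in the 3 classes. Whether copies changed the measured levels of single genes was not tested. Levels of genes with copies, such as Rps16 with all words copied, are to be read with this limit.

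**Figure D2:**
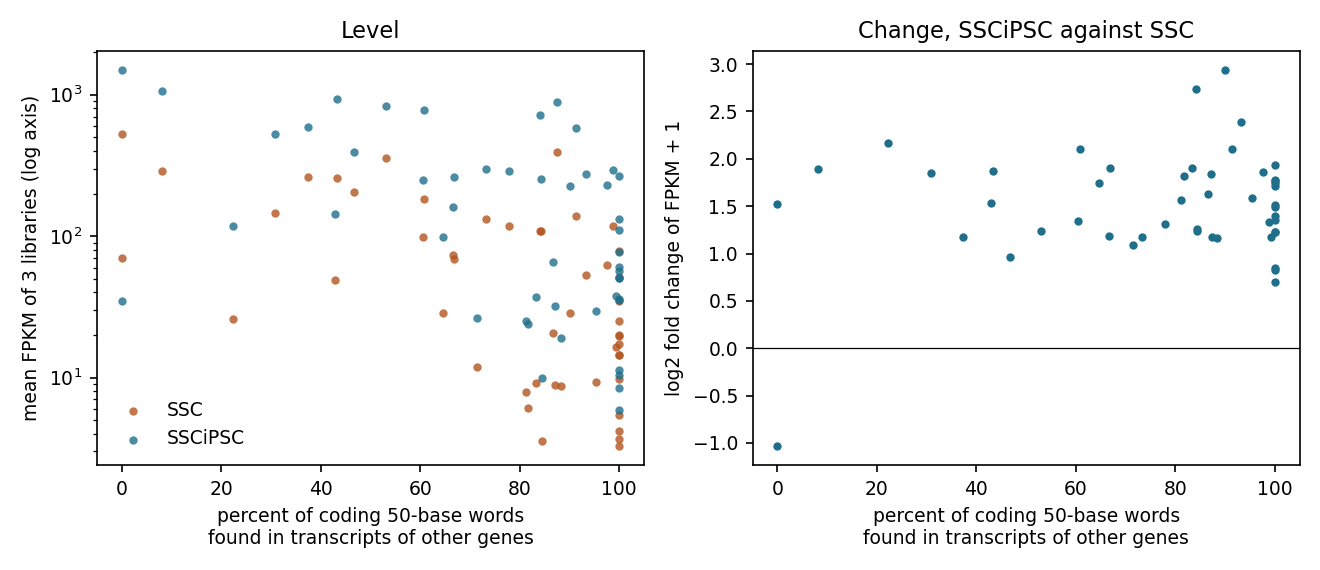
Mean FPKM in SSC and SSCiPSC (left, log axis, 1 colour a group) and log2 fold change of FPKM + 1, SSCiPSC against SSC (right), against the share of the coding sequence's words of 50 bases that occur in transcripts of other genes, 1 point a gene (n = 49). The level falls with the share (Spearman rho -0.50), the change does not (rho -0.08).

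The SSCiPSC were compared with the SSC to ask how the family differed between the cultured lines and the sorted cells. Reprogramming, culture and the somatic cells whose markers the SSC libraries held (given below) cannot be told apart in this comparison. A rise means here a higher value in the iPSC than in the SSC libraries. On the log2(FPKM + 1) scale, 46 of the 49 genes were higher and 1 was lower in SSCiPSC (limma, Benjamini-Hochberg adjustment over all loci, adjusted p below 0.05), against 26.2% of all 36544 tested loci that were higher and 24.1% that were lower. The median log2 fold change of the 49 genes was 1.53 (interquartile range 1.22 to 1.85), beside 0.11 over all loci, and it kept its sign with median-ratio scaling (1.73) and quantile normalization (0.95), while scaling each library to the median of the family set it near 0 by construction. The groups did not overlap in 49 of 49 genes, against 59.8% of all loci. The 60S genes (31 higher and 1 lower of 33, median 1.56) and the 40S genes (15 higher of 16, median 1.46) had medians close to each other. Among the 7242 loci with a strand and a mean of at least 10 FPKM, which are closer to these genes in level, 48.0% were higher and 18.9% lower. The median log2 fold change of these loci was 0.54. Without SSCiPSC replicate 2, 43 genes were higher and 1 was lower, with a median of 1.48, beside 15% and 20.3% of all loci.

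The largest rise was that of Rps4x (ENSMUSG00000031320.9, chrX:102184941-102189394, - strand), the X-linked gene of a 40S protein. Rps4x was measured at 23.7, 26.6 and 35.9 FPKM in the SSC libraries, 246, 223 and 205 in SSCiPSC and 186, 204 and 212 in fiPSC. All 6 iPSC libraries were above all 3 SSC libraries, and SSCiPSC and fiPSC overlapped. The log2 fold change in SSCiPSC was 2.94 (SE 0.18, adjusted p = 0.00011). Rpl39 (ENSMUSG00000079641.3, chrX:37082520-37085402, - strand), also on the X chromosome, encodes a very small 60S protein at the exit tunnel of the nascent chain, and rose by 2.74 on the log2 scale (SE 0.22, adjusted p = 0.00023). Rpl6, a 60S protein at the subunit's surface, was measured at 43.9, 66.8 and 47.5 FPKM in the SSC libraries, 243, 288 and 297 in SSCiPSC and 256, 249 and 252 in fiPSC. The iPSC libraries again lay above all SSC libraries, with a log2 fold change of 2.38 (SE 0.19, adjusted p = 0.00023). Rpl7l1, the paralogue of Rpl7, reached 2.16 (SE 0.24, adjusted p = 0.0006). Rpl13 and Rpl30, both of the 60S subunit, reached 1.93 (adjusted p = 0.00054) and 1.91 (adjusted p = 0.00023). These rises kept their sign with median-ratio scaling and quantile normalization.

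The P-stalk, the arm of the 60S subunit that recruits the elongation factors, is formed by Rplp0, Rplp1 and Rplp2. Rplp1 was measured at 201, 209 and 137 FPKM in the SSC libraries, 811, 767 and 745 in SSCiPSC and 977, 898 and 928 in fiPSC, so that fiPSC stood above SSCiPSC and both above SSC in every library. Its log2 fold change in SSCiPSC against SSC was 2.1 (SE 0.19, adjusted p = 0.00031). Rplp0, on which the other two sit, had a log2 fold change of 1.35 (SE 0.13, adjusted p = 0.00042). Rplp2 had one of 1.19 (SE 0.31, adjusted p = 0.019). The 3 stalk genes therefore all rose, with Rplp1 ahead, though Rplp2 lost its call without SSCiPSC replicate 2 or 3 (adjusted p = 0.069 and 0.067). With quantile normalization Rplp0 and Rplp2 stood at 0.35 and 0.32 without a call (adjusted p = 0.051 and 0.50). On the scale of the family median both lay below 0 (-0.21 and -0.36) without a call (limma adjusted p = 0.12 and 0.36). Rplp0 and Rplp2 were added beside Rplp1 for their role, with their values known.

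Among the genes with the highest levels, Rps3 had a log2 fold change of 1.89 (SE 0.17, adjusted p = 0.00029) and Rps9, a 40S protein that binds early in assembly, one of 1.87 (SE 0.16, adjusted p = 0.00028). Rpl26 and Rps19 were higher in SSCiPSC by 1.17 and 1.24 on the log2 scale (adjusted p = 0.0021 and 0.0022), but quantile normalization turned both directions (-0.08 and -0.03). Scaled to the family median, both lay below 0 (-0.39 and -0.32) without a call (limma adjusted p = 0.12 and 0.18). Rpl26 sits at the nascent chain exit, and loss of Rps19 is a known cause of Diamond-Blackfan anaemia. The genes that were not called, named for this reason after their values were seen, were Rpl28 (log2 fold change 0.83, adjusted p = 0.058) and Rps16 (0.70, adjusted p = 0.072).

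**Figure D3:**
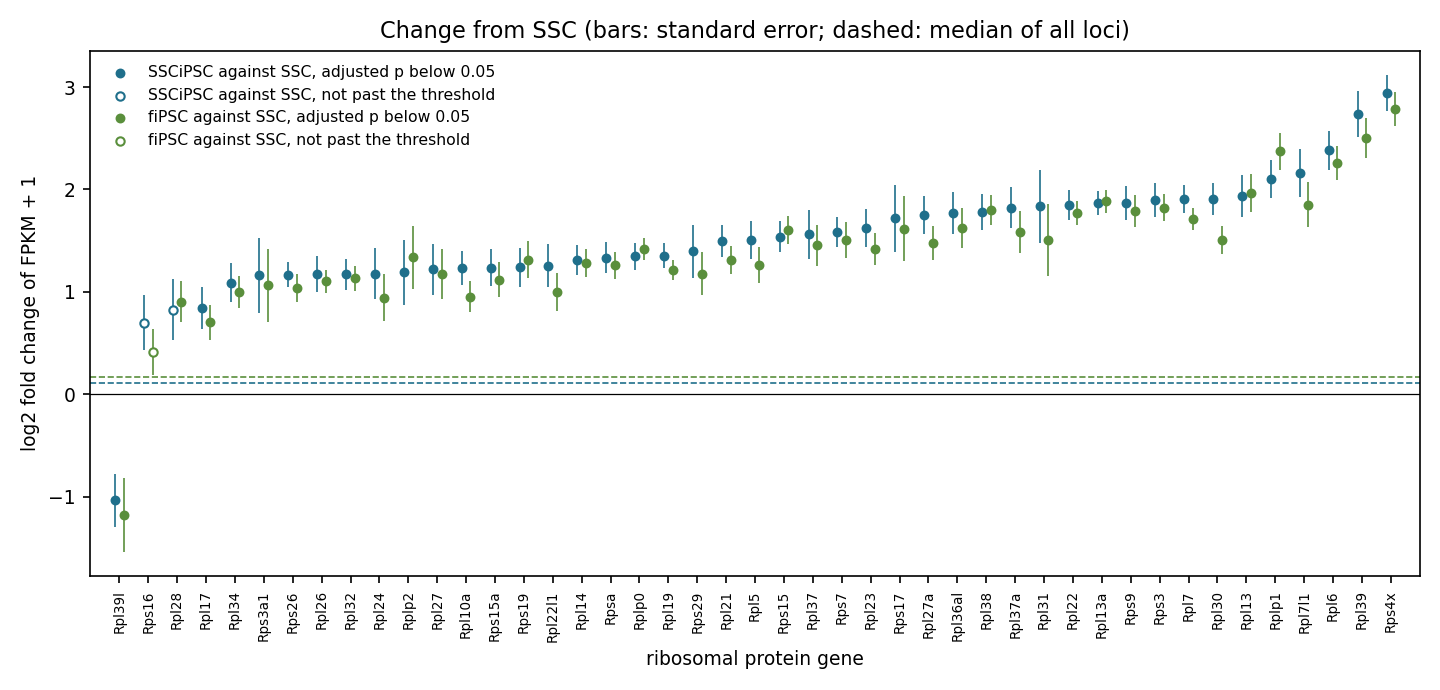
Log2 fold change of FPKM + 1 against SSC for 45 of the 49 genes, ordered by their change in SSCiPSC, with SSCiPSC and fiPSC in separate colours, bars of 1 standard error from limma, open symbols for values not past the threshold and dashed lines at the medians of all loci. In both comparisons 44 of the 45 genes lie above 0 and Rpl39l lies below, whereas with quantile normalization, which is not drawn, 44 (SSCiPSC) and 45 (fiPSC) of all 49 genes lie above 0.

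Rpl39l (ENSMUSG00000039209.12, chr16:10170226-10174911, + strand) was the only one of the 49 genes that was lower. It was measured at 63.2, 80.6 and 65.5 FPKM in the SSC libraries, 29.3, 49.3 and 25.4 in SSCiPSC and 34.3, 16.8 and 46.8 in fiPSC. The 3 SSC libraries were above all 6 iPSC libraries, which overlapped. The log2 fold change was -1.04 (SE 0.26, adjusted p = 0.016) in SSCiPSC and -1.18 (SE 0.36, adjusted p = 0.034) in fiPSC, and it was below 0 under each scaling. The call was close to the threshold: leaving out SSC replicate 2, SSCiPSC replicate 1 or SSCiPSC replicate 3 took the adjusted p in SSCiPSC to 0.052, 0.059 and 0.057. In fiPSC it was lost without SSC replicate 1, 2 or 3 (0.066, 0.096 and 0.064), without fiPSC replicate 1 (0.073), with median-ratio scaling (0.059) and with the replicate block (0.056). The adjusted p-values of limma ranged from 0.0010 to 0.059 over the 14 alternatives in SSCiPSC, apart from the scaling to the family median. The parent Rpl39 moved the opposite way and was measured at 98.6, 86.0 and 142 FPKM in the SSC libraries, 845, 646 and 671 in SSCiPSC and 611, 599 and 616 in fiPSC. Rpl39 was lowest in the SSC libraries, with no overlap.

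The coding sequences of this pair, from GENCODE M21, are printed here because the pair is where the family divided. Both have 156 bases, of which 23 differ (capitals) and 85.3% are identical, and the longest identical run is 38 bases, shorter than a word of 50. Of the words of Rpl39l, 0% occurred in transcripts of another gene, against 84% of those of Rpl39.
Rpl39: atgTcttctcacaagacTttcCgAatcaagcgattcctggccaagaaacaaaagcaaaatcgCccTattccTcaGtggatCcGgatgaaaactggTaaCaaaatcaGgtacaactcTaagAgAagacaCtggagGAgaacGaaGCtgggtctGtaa
Rpl39l: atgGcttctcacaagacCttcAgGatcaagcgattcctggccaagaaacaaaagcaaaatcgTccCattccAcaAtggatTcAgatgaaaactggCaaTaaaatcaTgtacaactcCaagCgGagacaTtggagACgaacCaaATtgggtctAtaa
The share of Rpl39l in the summed FPKM of the pair was 39.1, 48.4 and 31.5% in SSC, 3.36, 7.09 and 3.65% in SSCiPSC and 5.31, 2.73 and 7.06% in fiPSC. The means were 39.6 ± 8.44% (SD, n = 3), 4.70 ± 2.08% and 5.03 ± 2.18%, and the SSC did not overlap with either kind of iPSC. The exact two-sided permutation test of the pair's log2 ratio of FPKM + 1 gave p = 0.1 for each iPSC group against SSC, the smallest value that 3 against 3 libraries allow, and p = 1 between the iPSC groups. Being a ratio within a library, this share is not changed by a linear scaling of the libraries. Whether the copied words of Rpl39 changed the measured share was not tested.

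**Figure D4:**
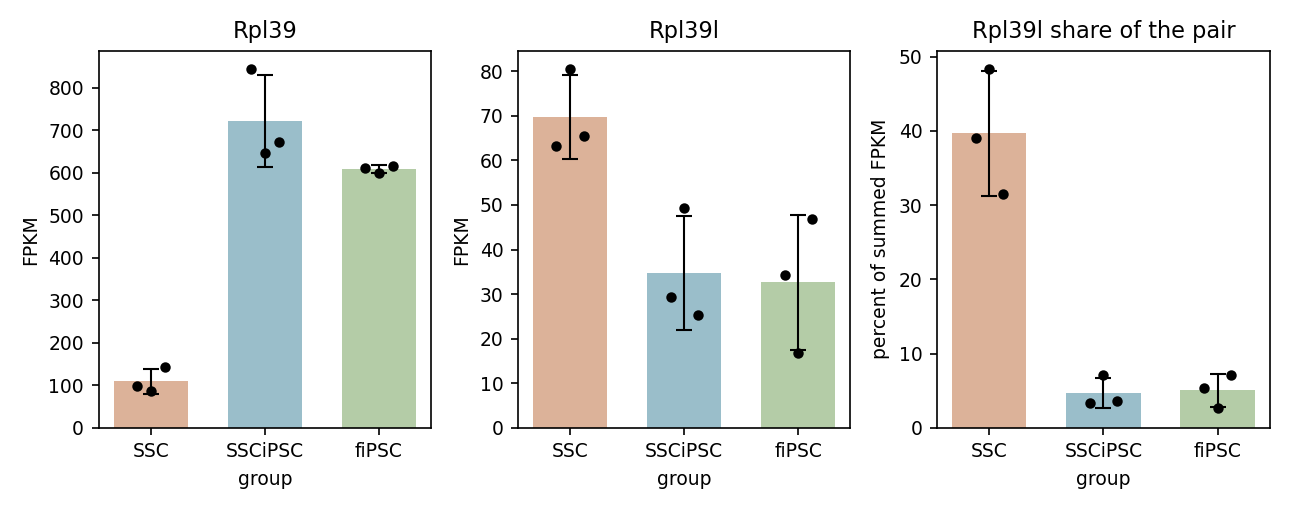
FPKM of Rpl39 (left) and of Rpl39l (middle), and the share of Rpl39l in the summed FPKM of the pair in percent (right), 1 point a library, with bars at the group mean and error bars of 1 SD (n = 3). The share has means of 39.6% in SSC, 4.70% in SSCiPSC and 5.03% in fiPSC.

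In the other paralogue pairs the shares moved less, or rested on unlike loci. Rpl22l1, the paralogue of Rpl22, took 2.43 ± 0.628% (SD, n = 3) of its pair in SSC, 1.85 ± 0.255% in SSCiPSC and 1.60 ± 0.232% in fiPSC (exact permutation p = 0.1 for either iPSC group against SSC). The share of Rpl22l1 in SSC replicate 3 (1.94%) lay below that in SSCiPSC replicate 3 (2.14%). The permutation p for SSCiPSC therefore depends on the 1 added to FPKM, and no separation of these shares is read from it. Rpl7l1 took 26.9 ± 3.93%, 30.9 ± 4.07% and 29.1 ± 1.27% (exact permutation p = 0.4 and 0.5). In both pairs the parent and the paralogue rose together in SSCiPSC, by 1.85 and 1.26 for Rpl22 and Rpl22l1 and by 1.90 and 2.16 for Rpl7 and Rpl7l1. Scaled to the family median, Rpl22l1 stood at -0.077 without a call (limma adjusted p = 0.79). Rpl36al, a retrogene that lies on an autosome while its parent Rpl36a lies on the X chromosome, took 91.9 ± 9.15%, 84.0 ± 2.59% and 86.0 ± 0.779% of its pair (exact permutation p = 0.4 for either iPSC group). For Rpl10l, the autosomal retrogene of the X-linked Rpl10, the share was 63.3 ± 3.99%, 39.1 ± 7.85% and 49.7 ± 11.4% (exact permutation p = 0.1 and 0.2). In the last 2 pairs the loci cover only a part of the parent, or more than the paralogue, so that the share is a ratio of unlike intervals. Rps27l took 97.4 ± 1.88%, 98.6 ± 0.506% and 99.0 ± 0.307% of its pair with Rps27, both in longer intervals (exact permutation p = 0.3 and 0.1). The share of Rps27l in SSC replicate 3 (99.5%) lay above all fiPSC shares. With Rps27 at 0.326 FPKM in that library, the permutation p for fiPSC depends on the added 1, and no conclusion is drawn from it. Rpl3l, known from muscle, took 10.2 ± 9.19%, 1.07 ± 0.770% and 0.607 ± 0.0678% of its pair with Rpl3, at a level of 1.16, 1.77 and 0 FPKM in SSC (exact permutation p = 0.1 for either iPSC group against SSC). The share of Rpl3l was lower in SSC replicate 3 than in the iPSC libraries and higher in the other SSC libraries. Both loci of this pair lie inside the gene. At these levels the ratio of FPKM + 1 depends on the added 1, so no conclusion is drawn from this p.

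The fiPSC were compared with the same 3 SSC libraries, so that the comparisons share their reference. In fiPSC, 47 genes were higher and 1 was lower, against 28.0% and 23.7% of 38007 tested loci. The median log2 fold change was 1.42 beside 0.17 over all loci, 1.59 with median-ratio scaling, 0.97 with quantile normalization and near 0 by construction when scaled to the family median. The groups did not overlap in 49 of 49 genes, against 61.6% of all loci. Among the 7243 loci with a strand and a mean of at least 10 FPKM, 48.0% were higher and 22.0% lower in fiPSC, with a median log2 fold change of 0.43. The 60S genes had a median of 1.42 (32 higher and 1 lower of 33) and the 40S genes one of 1.41 (15 higher of 16). Rps4x led with 2.78 (SE 0.17, adjusted p = 0.0001), followed by Rpl39 with 2.50 (SE 0.19, adjusted p = 0.0002), Rplp1 with 2.37 (SE 0.18, adjusted p = 0.00019) and Rpl6 with 2.26 (SE 0.17, adjusted p = 0.00018). Rpl13 reached 1.96 and Rpl13a, a 60S protein also known outside the ribosome as a silencer of translation, 1.89. Rps16 was the gene without a call (0.41 (SE 0.22, adjusted p = 0.18)).

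The fiPSC and the SSCiPSC were compared to ask whether the cell of origin left a difference in the family. No gene of the 49 was called by limma, against 0.0678% of 33948 tested loci. At an unadjusted p below 0.05 there were 5 genes, a share to be read beside 11.7% of all loci, and the groups did not overlap in 6 genes, against 18.6% of all loci. The median log2 fold change was -0.11 with 11 genes above 0 and 38 below. It was 0.01 over all loci and -0.096 over loci with a strand and a mean of at least 10 FPKM, close to that of the 49 genes. The median of the 49 genes was -0.14 with median-ratio scaling, -0.02 with quantile normalization and 0.02 when scaled to the family median. Rpl30 had the lowest unadjusted p: it stood at 34.5, 40.4 and 36.0 FPKM in SSCiPSC and at 29.1, 25.9 and 28.2 FPKM in fiPSC, without overlap, and its log2 fold change was -0.40 (SE 0.11, adjusted p = 0.29). Rpl31, Rpl10a and Rpl5 also lay lower in fiPSC (-0.33, -0.28 and -0.25) and Rplp1 higher (0.27), with adjusted p-values between 0.29 and 0.41. A p that misses the threshold does not show that the lines were alike. Rpl31, Rpl10a and Rpl5 were chosen after their values were seen.

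Scaling each library to the median of the family asked which members moved more or less than the family as a whole. In SSCiPSC against SSC, 9 genes were higher on this scale (among them Rps4x, Rpl39, Rpl6, Rpl7l1, Rplp1, Rpl30, Rpl7 and Rpl13a) and 5 were lower (among them Rpl39l, Rpl17, Rps26 and Rpl32), beside 9.26% and 52.9% of all loci. In fiPSC against SSC, 10 were higher (Rps4x, Rpl39, Rplp1, Rpl6, Rpl13, Rpl13a, Rpl38, Rps3, Rpl22 and Rpl7) and 6 were lower (among them Rpl39l, Rps16, Rpl17, Rps26 and Rpl32), beside 11.0% and 50.2% of all loci. Rps4x stood 1.40 above the family in SSCiPSC (adjusted p = 0.0010) and 1.37 above it in fiPSC (adjusted p = 0.0011). Rpl39 stood 1.18 and 1.07 above it, and Rpl39l 2.57 and 2.59 below it. Rpl17, a 60S protein at the exit tunnel, lay at -0.54 and -0.57. The scale was set by the members themselves, so that these values describe their order and not their level, and the genes in these lists that are not named elsewhere were chosen after their values were seen.

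Genes with and without the run of pyrimidines both rose. Of the genes with a locus of their own and a window, 15 had a run of at least 8, and 14 of them were higher in SSCiPSC (26.2% of all loci were) with a median log2 fold change of 1.35 (0.83 to 2.74). The 22 genes with a shorter run held 20 that were higher, with a median of 1.52 (-1.04 to 2.94). Of the genes printed above, Rpl27a rose by 1.75, Rpl13a by 1.86 and Rps9 by 1.87, while Rpl28 stood at 0.83 without a call.

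The genes without a locus of their own were measured less cleanly. Of the 14 genes in a longer interval on their strand, 11 were higher and none lower in SSCiPSC (median 1.77), and 12 were higher in fiPSC (median 1.63), where 26.2% of all loci were higher in SSCiPSC and 28.0% in fiPSC and 24.1% and 23.7% were lower. Of the 12 genes with a locus inside the gene, 10 were higher in SSCiPSC (median 1.39) and 10 of the 11 tested were higher in fiPSC (median 1.46). The genes with the largest changes of these sets, named after their values were seen, were Rpl3 (3.27 (SE 0.20, adjusted p = 0.00011) in SSCiPSC), which encodes a protein at the peptidyl transferase centre, Rpl36a (3.10 (SE 0.75, adjusted p = 0.014)) and Rpl35 (2.95 (SE 0.22, adjusted p = 0.00019)). Rpl36a was measured at 1.61, 2.76 and 20.3 FPKM in the SSC libraries, of which replicate 3 lay far above the others, and its change in SSCiPSC ran from 2.51 to 4.03 (without SSC replicate 1 and without SSC replicate 3), with the call lost without SSCiPSC replicate 2 (adjusted p = 0.051). Of the 7 genes in a locus shared with a second gene, 5 were higher and 1 was lower in each comparison with SSC (medians of 1.41 and 1.39). The lower one was Rpl7a, a 60S protein, at -0.42 (SE 0.11, adjusted p = 0.022) in SSCiPSC and -0.57 (SE 0.09, adjusted p = 0.0031) in fiPSC, and in SSCiPSC the call held in 6 of 14 alternatives other than the scaling to the family median. It was lost with median-ratio scaling (adjusted p = 0.22), with eBayes without its trend (0.078), with the replicate block (0.059), without SSC replicate 1 or 2 (0.066 and 0.061) and without SSCiPSC replicate 1, 2 or 3 (0.061, 0.060 and 0.080). Rpl23a, a 60S protein at the tunnel exit, had no call (0.37, adjusted p = 0.39 in SSCiPSC). Both were named after their values were seen. These loci hold more or less than the gene, and their levels are not levels of the gene.

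The pseudogenes of the family were measured too. Of 294 annotated pseudogenes named for a ribosomal protein, 23 had a locus, and their summed level was 4177, 5253 and 4836 FPKM in SSC, 14626, 12773 and 12323 FPKM in SSCiPSC and 13474, 12578 and 13417 FPKM in fiPSC. The 23 pseudogenes thus summed to about the level of the 49 genes in each library. In SSCiPSC against SSC 21 of 23 were higher and none lower (median log2 fold change 1.50), against 26.2% and 24.1% of all loci, with quantile normalization 10 were higher and 1 was lower (median 0.45), beside 24.2% and 25.0% of all loci, and with the scaling to the family median 3 were higher and 2 lower, beside 9.26% and 52.9%. The pseudogenes with the largest changes were Rps4x-ps (2.72 (SE 0.19, adjusted p = 0.00015)) and Rpl3-ps1 (2.32 (SE 0.15, adjusted p = 0.00012)), copies of genes that had large changes themselves. Of 14 pseudogenes whose parent had a locus of its own, 8 had a higher mean FPKM than the parent in SSCiPSC. Rps16-ps2, named after its value was seen, had 736 ± 209 FPKM (SD, n = 3) in SSCiPSC while Rps16 had 5.91 ± 1.27 FPKM. Rpl10a-ps1, chosen likewise, had 1587 ± 255 FPKM while Rpl10a had 60.2 ± 4.93 FPKM. How reads that match several places were assigned is not given in the sources used here, and whether these values are reads of the parent was not tested.

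The rest of the translation machinery was followed in gene lists. Their counts stand beside 26.2% of all loci that were higher and 24.1% that were lower in SSCiPSC against SSC, or 48.0% and 18.9% of loci with a strand and at least 10 FPKM, and beside 28.0% and 23.7% of all loci in fiPSC. On the scale of the family median the shares of all loci were 9.26% and 52.9% in SSCiPSC. Rack1 encodes a ribosomal protein under another name. Rack1, a scaffold on the head of the 40S subunit, was measured at 115, 128 and 119.6 FPKM in the SSC libraries, 498, 496 and 457 in SSCiPSC and 501, 467 and 513 in fiPSC, with a log2 fold change of 1.99 (SE 0.11, adjusted p = 9.3e-05) in SSCiPSC. It lay higher in the iPSC libraries without overlap.

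Among 47 genes of mitochondrial ribosomal proteins, which form the separate ribosome of the mitochondria, 39 were higher and none lower in SSCiPSC (median 1.13) and 38 were higher in fiPSC (median 0.92). On the scale of the family median 3 of them were higher and 22 lower in SSCiPSC (median -0.39), close to the share of all loci that were lower on it. Mrps31 rose from 9.02 ± 3.40 FPKM (SD, n = 3) in SSC to 64.1 ± 3.51 FPKM in SSCiPSC and Mrpl15 from 41.2 ± 12.8 to 250.0 ± 32.8 FPKM, with log2 fold changes of 2.75 and 2.61 (adjusted p = 0.0003 and 0.00039). Among 48 genes of pre-rRNA processing and subunit assembly, 34 were higher and 1 was lower (median 1.04), and 6 were higher and 26 lower on the scale of the family median (median -0.48). Dkc1, the pseudouridine synthase of the H/ACA particles, rose from 19.4 ± 2.19 to 187 ± 11.4 FPKM (log2 fold change 3.21 (SE 0.13, adjusted p = 4.0e-05)), and Gnl3l, a nucleolar GTPase, from 7.82 ± 1.46 to 69.4 ± 5.69 FPKM (3.01 (SE 0.17, adjusted p = 9.5e-05)). Mdn1, the ATPase that removes assembly factors from the 60S precursor, was lower, with 92.5 ± 14.6 FPKM in SSC and 47.4 ± 17.4 FPKM in SSCiPSC (-1.0 (SE 0.29, adjusted p = 0.026)), a call that was lost without SSC replicate 1 (adjusted p = 0.071), SSC replicate 2 (0.077) or SSCiPSC replicate 3 (0.071) and with median-ratio scaling (0.068). The medians of both lists were above 0 with median-ratio scaling and quantile normalization.

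Of 15 genes of RNA polymerase I and its factors, 11 were higher and none lower in SSCiPSC (median 1.04), against 26.2% and 24.1% of all loci, and 1 was higher and 5 lower on the scale of the family median (median -0.42). Rrn3, the factor that recruits the polymerase to rRNA genes, rose from 31.7 ± 4.57 to 134 ± 20.3 FPKM (log2 fold change 2.05 (SE 0.17, adjusted p = 0.00024)). Polr2k, a small subunit of all nuclear polymerases, had 2.67, 3.06 and 0 FPKM in SSC and 11.6, 11.1 and 7.75 FPKM in SSCiPSC (2.16 (SE 0.57, adjusted p = 0.019)), and lost its call without SSCiPSC replicate 1 (0.068) or 2 (0.069) and with a pseudocount of 0.1 (0.090). All 5 noncoding host genes of small nucleolar RNAs were higher (median 2.63), a class whose transcripts also begin with a TOP motif as a rule. Snhg12 rose from 16.1 ± 3.90 to 190.5 ± 16.8 FPKM (3.51 (SE 0.20, adjusted p = 9.2e-05)) and Zfas1 from 21.6 ± 4.80 to 151 ± 4.22 FPKM (2.77 (SE 0.18, adjusted p = 0.00013)).

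Of 24 genes of translation initiation, 20 were higher and none lower in SSCiPSC (median 0.76), against 26.2% and 24.1% of all loci. With quantile normalization 6 were higher and 3 lower (median -0.08), near the 24.2% of all loci that were higher on that scale, and with the scaling to the family median 1 was higher and 16 were lower (median -0.77). Eif2s3x, the X-linked gamma subunit of eIF2, had 0.463, 12.5 and 9.67 FPKM in SSC and 87.8, 104 and 74.5 FPKM in SSCiPSC (3.90 (SE 0.82, adjusted p = 0.0077)), and Eif4b, a cofactor of the eIF4A helicase, rose from 92.1 ± 4.74 to 342 ± 2.09 FPKM (1.88 (SE 0.11, adjusted p = 9.2e-05)). Of 6 genes of translation elongation, 5 were higher and 1 was lower (median 1.45). On the scale of the family median none of them was higher and 1 was lower (median -0.06). Eef1d and Eef1e1, of the exchange factor and of the synthetase complex, had log2 fold changes of 1.63 and 1.88 (adjusted p = 0.00084 and 0.0013), and Eif5a2, the less widely expressed paralogue of Eif5a, was lower with 28.2 ± 4.69 FPKM in SSC and 5.37 ± 0.355 FPKM in SSCiPSC (-2.18 (SE 0.18, adjusted p = 0.00026)).

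The regulators of these genes were called in both directions. Of 18 genes of the mTOR, LARP1 and MYC list, 5 were higher and 4 lower in SSCiPSC (median -0.13, 0.07 with median-ratio scaling), close to the 26.2% and 24.1% of all loci, and 6 were higher and 6 lower in fiPSC (median 0.06, -0.20 with quantile normalization), beside 28.0% and 23.7%. These 12 calls in fiPSC became 6 without fiPSC replicate 1 or 2, 7 without fiPSC replicate 3 and 7 with the replicate block. On the scale of the family median none was higher and 15 were lower in SSCiPSC. Myc, a general activator of ribosome genes and a gene of the reprogramming cassette, was measured at 55.6, 49.1 and 69.3 FPKM in the SSC libraries, 2.81, 19.0 and 4.11 in SSCiPSC and 7.16, 4.49 and 9.07 in fiPSC, with a log2 fold change of -3.00 (SE 0.60, adjusted p = 0.0067). Myc was higher in all SSC libraries, and 1 of the SSCiPSC libraries stood well above the other two. Mycn, its relative, moved the opposite way, from 14.3 ± 4.56 to 61.7 ± 4.92 FPKM (2.08 (SE 0.22, adjusted p = 0.00056)). Rps6ka1, a kinase of the MAP kinase pathway that phosphorylates Rps6, had a log2 fold change of 1.94 (SE 0.20, adjusted p = 0.00049), and Mxd4, an antagonist of Myc, one of -2.88 (SE 0.39, adjusted p = 0.0012). In fiPSC against SSCiPSC limma called no gene in any of the 9 lists, against 0.0678% of all loci.

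**Figure D5:**
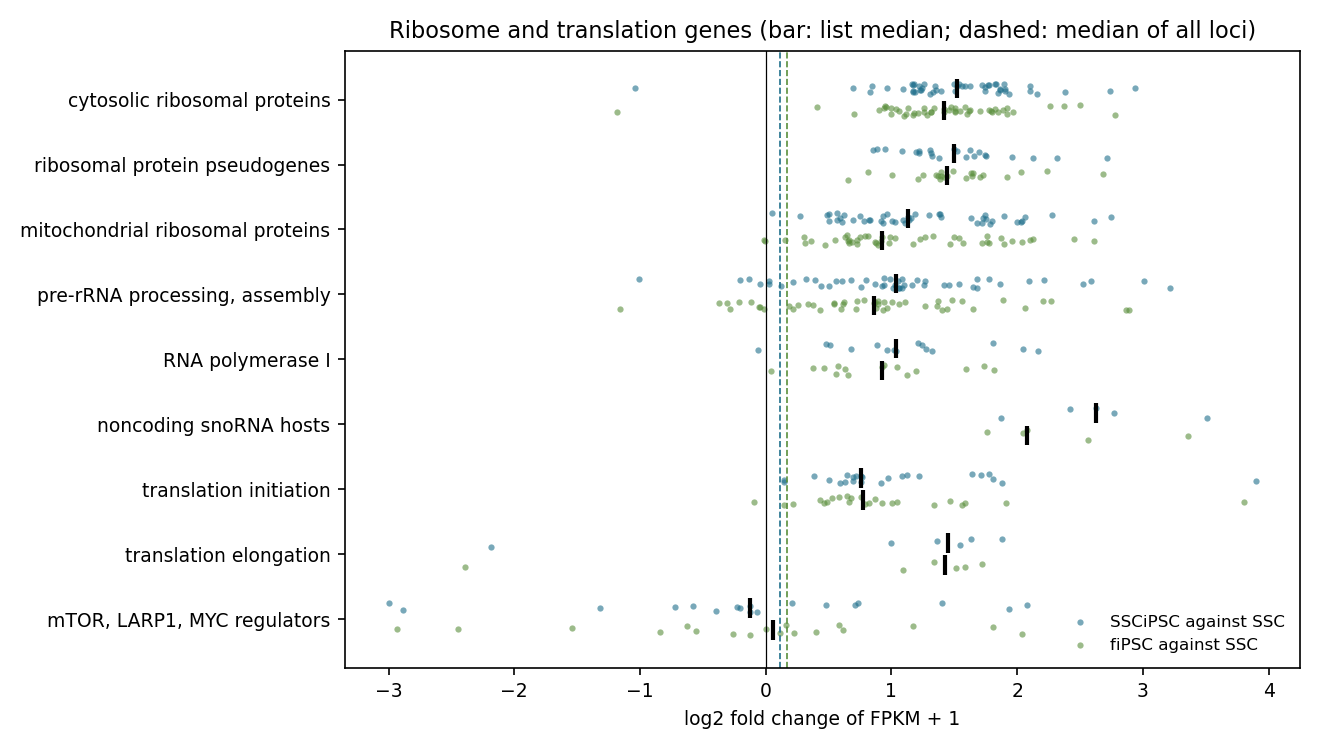
Log2 fold change of FPKM + 1 against SSC for the 49 cytosolic ribosomal protein genes, the 23 pseudogenes and 7 lists of the translation machinery, 1 point a gene, with SSCiPSC above and fiPSC below in each row, a bar at the list's median and dashed lines at the medians of all loci (0.11 and 0.17). The medians lie to the right of the dashed lines except for the mTOR, LARP1 and MYC regulators, and with quantile normalization that of translation initiation lies below 0.

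The make-up of the samples differed between SSC and iPSC as well. The counts of markers called in SSCiPSC against SSC stand beside 26.2% of all loci that were higher and 24.1% that were lower. The 13 germ line markers with a locus, of 14 listed, summed to 624, 779 and 512 FPKM in SSC, 232, 358 and 255 FPKM in SSCiPSC and 221, 209 and 269 FPKM in fiPSC, with 9 lower and 3 higher in SSCiPSC. By group mean, Dazl was the most abundant in SSC and Sall4 in both kinds of iPSC. The 7 pluripotency markers, of 10 listed, summed to 57.4, 62.2 and 65.6 FPKM in SSC and 2102, 2144 and 1950.2 FPKM in SSCiPSC and 1651, 1649.5 and 1798 FPKM in fiPSC, and all 7 were higher, with Klf4 as the most abundant in SSC and Pou5f1 in both kinds of iPSC. The summed germ line markers were thus highest in the SSC libraries and the summed pluripotency markers in the iPSC libraries. The 3 germ line markers that were higher in SSCiPSC were Kit, Sall4 and Dppa3. The SSC libraries also held markers of the somatic cells of the testis. The 7 Sertoli cell markers, of 11 listed, summed to 1198, 1221 and 976 FPKM in SSC and to at most 14.7 FPKM in the iPSC libraries, and all 7 were lower in SSCiPSC. Clu led them with 713, 645 and 538 FPKM in SSC, and Cst12 was listed at 0 in all 6 iPSC libraries.

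The 3 Leydig cell markers with a locus, of 7 listed, summed to 159.8, 124 and 236 FPKM in SSC, led by Cyp11a1, and to at most 0.358 FPKM in the iPSC libraries, where Lhcgr was listed at 0 in all 6. The 4 peritubular myoid markers, of 5 listed, summed to 85.8, 76.9 and 70.2 FPKM in SSC against at most 12.5 FPKM in the iPSC libraries, with 2 lower and Acta2 as the most abundant in SSC. The 7 macrophage markers, of 8 listed, summed to 56.9, 20.7 and 172 FPKM in SSC, 14.5, 9.06 and 12.8 FPKM in SSCiPSC and 14.7, 13.5 and 14.2 FPKM in fiPSC, with 5 lower in SSCiPSC and Cd68 as the gene with the highest mean over all libraries. The 8 markers of fibroblasts or feeder cells, led by Col3a1, summed to 90.0, 83.3 and 283 FPKM in SSC, 30.0, 20.7 and 43.8 FPKM in SSCiPSC and 34.9, 10.7 and 42.8 FPKM in fiPSC, with 4 lower. Of 5 blood markers 2 had a locus, led by Alas2, and the 1 tested was not called. SSC replicate 3 was thus the highest for macrophage, fibroblast and Leydig cell markers. Without this library 46 ribosomal protein genes were higher and 1 was lower in SSCiPSC, beside 29.1% and 14.9% of all loci. The part of the somatic cells, and of the lower depth of the SSC libraries, in the difference between SSC and iPSC was not tested.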

How the data were processed

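Paired reads came from strand-marked libraries, with rRNA depletion per the labels, while the study's methods name an mRNA kit and no depletion, and the submitters' processing notes name Trimmomatic 0.32, TopHat2 2.0.9, Bowtie2 2.1.0, Cufflinks 2.2.1, Cuffdiff and the build mm9. The deposited table holds FPKM per Cufflinks locus and library, normalized by the authors to transcript length and mapped fragments, with no counts. The interval ends matched GENCODE M21 genes on GRCm38: 23.8% of 9889 loci with a strand had both ends within 300 bases of a protein-coding gene, against at most 0.0303% after a shift of 1000000 bases. Genes were therefore assigned by GRCm38 position, with an overlap of at least 50% of gene and locus on the gene's strand and no second gene. The order of rows within a chromosome gave the strand, which 38550 loci lacked. Rpl21 was assigned without a strand.

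Depth was estimated from the steps between low FPKM values. Fits used limma 3.58.1 (R 4.3.3, lmFit, then eBayes with its trend option). The values were log2(FPKM + 1) of the 6 libraries compared, for loci that reached 1 FPKM in 3 or more of these, with Benjamini-Hochberg adjustment over all loci tested. A fold change on this scale understates that of low genes. The script was tested on simulated data, where the share of false calls exceeded the threshold of 0.05. Paralogue pairs were compared with exact permutation tests of the log2 ratio of FPKM + 1. Copies, windows and tables used Python 3.11.15, pandas 2.3.3, numpy 2.4.6 and scipy 1.17.1.

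Genes were named by rule: the 8 largest changes in a direction among called genes without overlap and with at least 10 FPKM in a group mean, or all if 10 or fewer, the 6 highest means, all paralogue pairs, and the 2 largest called changes in each direction of each related list. Exceptions are marked in the text, and some genes that the rule names are not reported here. The members, lists and rules were chosen with earlier results of these data known. Alternatives were other scalings, filters, pseudocounts, fits, locus rules and thresholds, and each library left out in turn.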

Additional observations from a re-analysis of the deposited data

How the results depend on the processing

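The number of the 49 genes called stayed within 1.5 times its value under the other pseudocount, filters, variance prior and fit over all 9 libraries, with adjusted p below 0.01 (43 in SSCiPSC and 41 in fiPSC against SSC) and with median-ratio scaling or quantile normalization. Leaving out each library in turn gave 43 to 47 calls in either comparison with SSC and 0 in fiPSC against SSCiPSC. The share of all loci called was then 34.7 to 44.5% in SSCiPSC and 33.6 to 49.6% in fiPSC against SSC. Scaling to the family median gave 14 calls in SSCiPSC and 16 in fiPSC against SSC, by construction. An overlap of at least 80% left 32 genes, of which 31 were called in each comparison, and genes with under 50% of words in other genes numbered 9, of which 9 were called in each (a choice made after seeing the data). With the 7 shared loci kept, 53 (51 higher and 2 lower) and 54 (52 and 2) of 56 were called, Rpl7a being the second lower one, and with the genes in a longer interval or with a locus inside the gene, also added later, 68 of 75 and 70 of 74. Over all loci tested, the median log2 fold change went with median-ratio scaling from 0.11 to 0.26 in SSCiPSC and from 0.17 to 0.29 in fiPSC, and with scaling to the family median to -1.08 and -0.93.

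Among the genes whose changes the text describes, quantile normalization turned Rpl26 (-0.0788 in SSCiPSC, -0.0508 in fiPSC), Rpl32 (-0.12 and -0.0875) and Rps19 (-0.0337 in SSCiPSC). Scaling to the family median takes the family's own change away, so that members that rose less turn by construction: in SSCiPSC and fiPSC these were Rpl26 (-0.39 and -0.33), Rps19 (-0.32 and -0.12), Rpl22l1 (-0.0773 and -0.21), Rpl10a (-0.30 and -0.45), Rpl17 (-0.54 and -0.57), Rpl32 (-0.39 and -0.30), Rpl5 (-0.0045 and -0.12), Rplp0 (-0.21 and -0.0084), Rplp2 (-0.36 and -0.0884), Rps26 (-0.39 and -0.40), Rpl23a (-1.14 and -0.89), Rpl28 (-0.51 and -0.34) and Rps16 (-0.59 and -0.76), the last 2 without a call in SSCiPSC on either scale. A further 83 of 2562 values of these genes kept their direction and lost their call, 30 of them under the scaling to the family median, and 7, all of Rpl28 and Rps16 in SSCiPSC, gained one.

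Libraries with the same replicate number did not deviate together (correlations of -0.006 to 0.021 in SSCiPSC against SSC, -0.021 to -0.008 in fiPSC against SSC and -0.24 to -0.05 in fiPSC against SSCiPSC), so the numbers were not taken as pairs. With the replicate block, 45 genes were higher and 1 lower in SSCiPSC, 46 were higher and none lower in fiPSC against SSC, and 0 were called in fiPSC against SSCiPSC. Of all loci, 46.3%, 46.2% and 0.0177% were called with the block in these comparisons.

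The SSC libraries were shallower than the iPSC libraries by between 2.88 and 12.8 times, and the deposited values do not show how reads of near-identical copies were assigned.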

Other observations

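Of the 49 genes with a locus of their own, the 2 with the largest rise, Rps4x and Rpl39, lie on the X chromosome. Rpl36a and Rpl10, which were measured by loci inside the gene, are X-linked too (log2 fold changes of 3.10 and 2.17 in SSCiPSC against SSC), while the autosomal Rpl3 and Rpl35, also without a locus of their own, stood at 3.27 and 2.95. Over all 82 genes with any locus, Rpl36a, Rps4x, Rpl39 and Rpl10 ranked 2, 4, 6 and 10. Without SSC replicate 1, 2 or 3 or an iPSC replicate, Rps4x and Rpl39 kept their calls. The lists of the translation machinery held 5 further X-linked genes: Dkc1, Gnl3l, Utp14a, Eif2s3x and Eif1ax. All 5 were higher in SSCiPSC, with a median log2 fold change of 3.01 (0.65 to 3.90), beside 1.01 for the other 160 genes of these lists, of which 122 were called. Of all loci, 26.2% were higher and 50.3% were called in either direction. Utp14a, a nucleolar factor of the small subunit's assembly, rose from 10.5 ± 0.798 FPKM (SD, n = 3) in SSC to 64.9 ± 4.13 FPKM in SSCiPSC. The X chromosome as a whole showed a much smaller difference. Over loci with a strand and a mean of at least 10 FPKM, the median log2 fold change was 0.54 on the X chromosome (n = 245) and 0.44 on the autosomes (n = 7080), and 16.7% against 10.4% of these loci lay above 2. The ratio of the median FPKM of X-linked loci to that of autosomal loci was 0.895 ± 0.046 (SD, n = 3) in SSC, 0.983 ± 0.096 in SSCiPSC and 0.965 ± 0.038 in fiPSC, with exact two-sided permutation p = 0.3 and 0.2 against SSC. In SSCiPSC replicates 1, 2 and 3 it was 1.03, 0.874 and 1.05. Replicate 2, which stood apart on the Y chromosome, thus lay within the SSC range of 0.845 to 0.934. These comparisons by chromosome were chosen after the values of Rps4x and Rpl39 were seen, and no test of the X-linked members against the others was made.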
